A study of Mus musculus with 30 samples.

Results

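Dazl, Ddx4, Mael, Sycp1, Sycp3, Stra8, Hormad1, Tdrd1, Tex101 and Stk31 are germline genes, transcribed in developing eggs or sperm and normally silent in body cells. These 10 of 21938 mouse protein-coding genes were chosen by name. They are thought to be silenced in body cells through methylation of lysine 9 of histone H3 (H3K9). The choice used no value measured here, though earlier results of these data were known when it was made. For each gene, peaks of H3K27ac, acetylation of lysine 27 of histone H3 and a mark of active promoters and enhancers, were taken in 4 peak lists when they lay within 20 kb of the gene, and each peak was assigned to the gene's own start sites or to those of a neighbour when it lay within 2.5 kb of them. H3K27ac was profiled by chromatin immunoprecipitation and sequencing (ChIP-seq) in 2 mouse lung adenocarcinoma lines, CK1750 and Tnm2, kept in DMEM with fetal bovine serum and given either the solvent DMSO or 1 µM UNC0638, an inhibitor of the H3K9 methyltransferases G9a and Glp. The groups were CK1750 given DMSO (3 samples), CK1750 given UNC0638 (2 samples), Tnm2 given DMSO (2 samples) and Tnm2 given UNC0638 (2 samples), and the labels assign each group's samples to 1 merged peak list. CK1750 is a line with features of tumour-propagating cells, and Tnm2 has little of the surface marker Sca-1 before treatment. There is therefore no spread between replicates for any value and no difference could be tested. H3K9me2, the mark made by G9a and Glp, and input DNA were profiled in the other 21 of 30 samples and were not analysed here, so whether these genes carried H3K9 methylation in these lines was not tested.

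In body cells, germline promoters are kept silent by DNA methylation and by repressors that read their sequence. A Polycomb complex that contains MGA, MAX and E2F6 binds E-boxes (CACGTG) and E2F sites in such promoters and brings in L3MBTL2 and the H3K9 methyltransferases G9a and Glp, and SETDB1 acts at an overlapping set of genes. Many of these promoters are rich in CpG, a feature that in other genes goes with constant activity. When silencing is lost, such genes can be switched on outside the germline, and those active in tumours are known as cancer-testis genes.

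The lists held 27367 peaks in CK1750 given DMSO, 24601 in CK1750 given UNC0638, 30641 in Tnm2 given DMSO and 18794 in Tnm2 given UNC0638. Each peak has a score, -10 log10 of its P value as the authors' peak caller gave it, so that the caller's cutoff of 1e-05 corresponds to a score of 50. Median scores ran from 119.28 to 179.58 over the lists. Scores rise with sequencing depth, which the lists do not carry, so they were used to place a peak within its own list and not to compare lists. For the same reason a peak that is missing from a list fell short of the cutoff, and the mark itself may still be there. Of 5 lung epithelial marker genes, Cdh1, Krt8, Krt18 and Nkx2-1 had a promoter peak in every list, and Epcam had none in any.

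None of the 10 germline genes had an H3K27ac peak at its own promoter in any of the 4 lists. This held for the RNA-binding regulators of germ cell development (Dazl, Ddx4), for the axis and synapsis proteins of meiotic chromosomes (Sycp1, Sycp3, Hormad1), for the meiotic entry gene Stra8, and for the piRNA pathway genes Mael and Tdrd1. It also held for Tex101, which encodes a germ cell surface glycoprotein, and for Stk31, which encodes a Tudor domain protein of germ cells. Among all protein-coding genes, 50% had a peak within 2.5 kb of an own start site in CK1750 given DMSO, 49.1% in CK1750 given UNC0638, 49.4% in Tnm2 given DMSO and 41.3% in Tnm2 given UNC0638. The 10 genes have 30 annotated start sites between them, from 2 each for Ddx4, Mael, Sycp3, Hormad1 and Tex101 to 6 for Dazl.

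No germline gene gained a promoter peak with UNC0638 in either line. All 10 lacked one with DMSO and so could have gained one. Of all protein-coding genes without a promoter peak with DMSO, 3.03% had one with UNC0638 in CK1750 (332 of 10961) and 1.18% in Tnm2 (131 of 11093). The members' 0 of 10 is near these shares of all genes. Loss could not occur, since no member had a promoter peak with DMSO, while 4.85% of the genes that had one in CK1750 and 17.7% in Tnm2 lacked it with UNC0638.

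**Figure D1:**
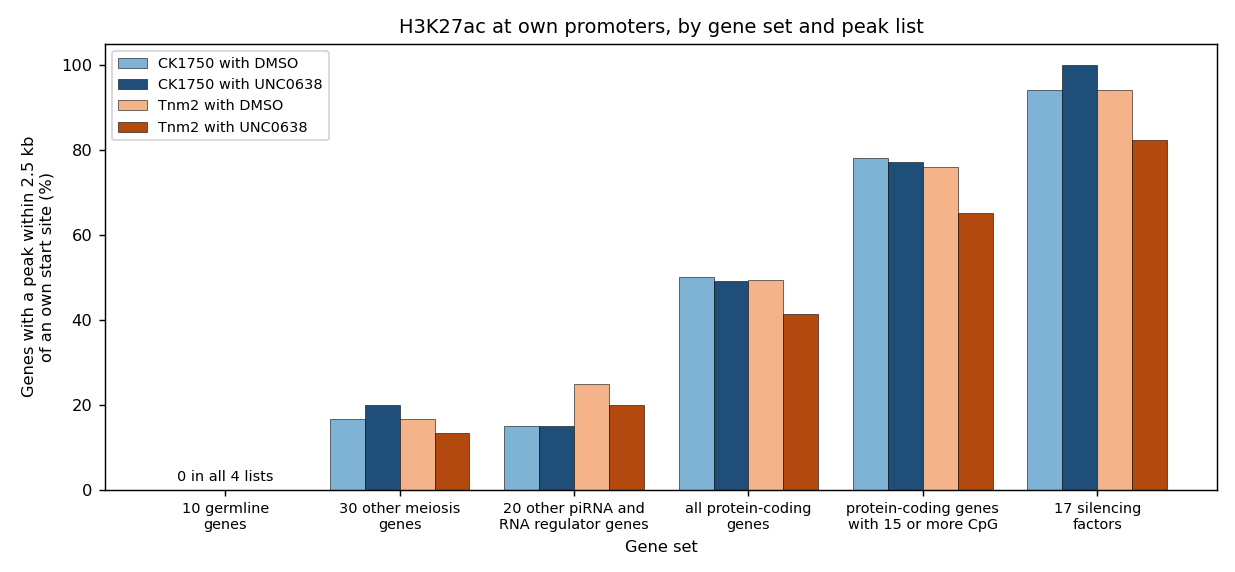
Share of genes (%, vertical axis) with an H3K27ac peak within 2.5 kb of an own start site, for 6 gene sets and the 4 peak lists (bar colours, 1 pooled list per bar, no error bars). The 10 germline genes sit at 0 in all 4 lists, other meiosis and piRNA genes between 13.3 and 25%, and all protein-coding genes between 41.3 and 50%.

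The promoter sequences of these genes were rich in CpG, and E-boxes were frequent among them. RefSeq promoter sequences (250 bases before to 50 after the start, build GRCm38.p6) matched all 10 symbols, and CACGTG, which reads the same on both strands, was present in 7 of them (70.0%). Of 27025 gene symbols with such a sequence, 8.09% held it, and of the 10038 with 15 or more CpG, 12.8%. These symbols are not limited to protein-coding genes. The E2F motif GGCGGGAA on either strand was present in Ddx4 and Hormad1 (20%), against 2.52% of all symbols and 5.42% of those with 15 or more CpG. The E2F motif and the E-boxes of Ddx4 and Hormad1 do not overlap. Dazl, Stra8 and Tex101 held no CACGTG, which says only that these letters are not in that window. The 9 boxes of the 7 genes are shown with 12 bases on each side, because they carry the sequence feature these promoters share. Each is written 5′ to 3′ on the strand of its gene, with the box in capitals, and its position is that of the first base of the box counted from the nearest GENCODE start site.
Ddx4 (box at -38), chr13:112652322-112652351, minus strand: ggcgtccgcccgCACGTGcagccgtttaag
Mael (box at -220), chr1:166238950-166238979, minus strand: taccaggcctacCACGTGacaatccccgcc
Sycp1 (box at -94), chr3:102936177-102936206, minus strand: tagagaacccggCACGTGggaagggaaatc
Sycp3 (box at -46), chr10:88459511-88459540, plus strand: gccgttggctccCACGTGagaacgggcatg
Sycp3 (box at -25), chr10:88459532-88459561, plus strand: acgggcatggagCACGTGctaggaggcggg
Hormad1 (box at -57), chr3:95559608-95559637, plus strand: caaagggtgcgcCACGTGccagtgacagtt
Hormad1 (box at -20), chr3:95559645-95559674, plus strand: atgcgcactgcgCACGTGctgaccggagcg
Tdrd1 (box at -11), chr19:56826186-56826215, plus strand: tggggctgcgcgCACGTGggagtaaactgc
Stk31 (box at -120), chr6:49395472-49395501, plus strand: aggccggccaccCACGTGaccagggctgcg

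The boxes lay between positions -11 and -220, closest to a start site in Tdrd1 and farthest in Mael, and Sycp3 and Hormad1 held more than 1. That of Ddx4, upstream of its nearest start site, lies downstream of the gene's first start site and so inside the annotated gene. CACGTG was preceded by g and followed by c in 3 of the 9 boxes (in Ddx4, Sycp3 and Hormad1), and preceded by c and followed by a in another 3 (in Mael, Sycp3 and Stk31). The remaining 3 had g on both sides (Sycp1 and Tdrd1) or c on both sides (Hormad1), the same sequence read on opposite strands. No pair of flanking bases was thus more frequent than another. No H3K27ac peak reached any of the boxes, since every peak of the 4 lists lay at least 3.514 kb from a member's start sites.

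CpG numbers in the 300-base promoter sequences, taken from the entry with the most CpG where RefSeq lists several, were 38 in Ddx4, 29 in Stk31, 28 in Dazl, 25 in Tdrd1, 24 in Mael, 24 in Hormad1, 21 in Sycp1, 19 in Tex101, 15 in Sycp3 and 10 in Stra8. The 3 entries of Tdrd1 held 20, 25 and 3 CpG, the 2 of Stk31 held 29 and 28, and the 2 of Hormad1 held 24 each. The members' median was 24 and that of all symbols 8, and 9 of the 10 members (90.0%) had 15 or more CpG against 37.1% of all symbols. Among the members only Stra8 lay under 15. The symbols are not limited to protein-coding genes, while all members are protein-coding. Protein-coding genes with a sequence numbered 1512 with CACGTG and 14993 without it. Of these, 8549 had 15 or more CpG, a larger share than among all symbols. CpG number moved with H3K27ac over the genome: in CK1750 given DMSO a promoter peak was present at 8.88% of protein-coding genes with 0 to 4 CpG and at 78.7% of those with 20 to 29 CpG. Of the 8549 protein-coding genes with 15 or more CpG, 78.2% had a promoter peak in CK1750 given DMSO, 77.2% in CK1750 given UNC0638, 76.1% in Tnm2 given DMSO and 65.2% in Tnm2 given UNC0638. Of the 9 germline genes in that class, 0 had one in any list.

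**Figure D2:**
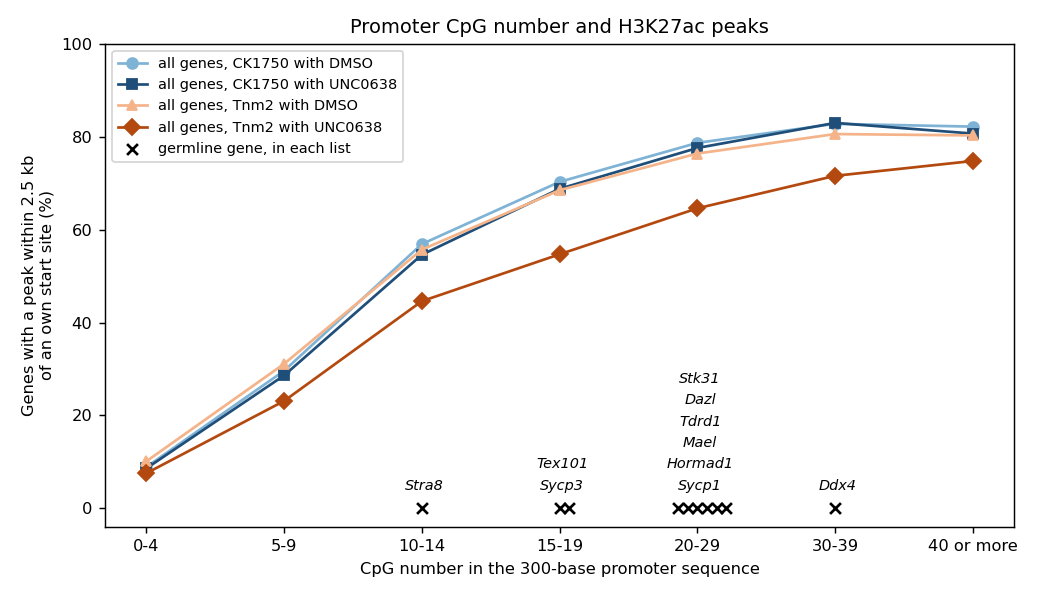
Share of protein-coding genes (%, vertical axis) with an H3K27ac peak within 2.5 kb of an own start site, by the CpG number of the 300-base promoter sequence (horizontal axis, classes), with a line for each of the 4 lists and crosses at 0 for the 10 germline genes in their CpG classes. The lines rise from 7.53 to 10.1% at 0 to 4 CpG to between 64.6 and 78.7% at 20 to 29 CpG, the class that holds 6 of the 10 germline genes.

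The E-box by itself did not go with a missing peak. Over all protein-coding genes with a sequence, a promoter peak was present in CK1750 given DMSO at 68.3% of the 1512 genes with CACGTG and at 50.4% of the 14993 without it. The same held in CK1750 given UNC0638 (67.2 and 49.5%), in Tnm2 given DMSO (67.3 and 49.7%) and in Tnm2 given UNC0638 (56.5 and 41.6%). Among genes with 15 or more CpG the shares lay close together, at 79.5 and 78.0%, 78.8 and 77.0%, 79.0 and 75.6%, and 66.7 and 64.9% in the same order of lists. The 7 germline genes with a box therefore differed from most other genes with a box in having no promoter peak.

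No peak close to the germline genes lay at their own start sites, and several lay at those of neighbours. Over the 4 lists, 16 peaks lay within 20 kb of a member, and 0 of them was within 2.5 kb of a member's own start site. The start site of another gene lay within 2.5 kb of 11, and the other 5, all beside Hormad1, had no start site of any gene so close and so met only the distance limit. The 11 were 3 of 4 peaks in each CK1750 list. They were 3 of 6 in Tnm2 given DMSO and 2 of 2 in Tnm2 given UNC0638. The same places recurred between lists, so the 16 peaks are not 16 separate sites. The share of all peaks lying this close to a start site was not counted. The 16 peaks were at 4 genes, Ddx4, Stra8, Tdrd1 and Hormad1. Dazl, Mael, Sycp1, Sycp3, Tex101 and Stk31 had none in any list.

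The numbers of members with any peak within 20 kb were 4 in CK1750 given DMSO, 4 in CK1750 given UNC0638, 4 in Tnm2 given DMSO and 2 in Tnm2 given UNC0638. Among all protein-coding genes the shares were 65.3%, 63.9%, 65.5% and 58.1% in the same order, above the members' 4 or 2 of 10 in each list. These shares count every gene with a promoter peak of its own, which no member had. They therefore do not show whether the members' surroundings hold fewer peaks than those of other genes without a promoter peak. With UNC0638, 0 of 4 members lost all peaks within 20 kb in CK1750, where 4.14% of all genes did. In Tnm2, 2 of 4 did so (Stra8 and Hormad1), beside 12.3% of all genes. Most genes in both loss shares had a promoter peak of their own with DMSO, which no member had. Those shares are therefore no like base for the members' losses. No member gained a peak within 20 kb, 0 of 6 in each line, against 3.56% of genes in CK1750 and 1.67% in Tnm2. The Tnm2 list with UNC0638 held the fewest peaks of all. When every list was cut to its 18794 highest-scoring peaks, Stra8 and Hormad1 still had a peak within 20 kb in Tnm2 given DMSO. The cut left the list of Tnm2 given UNC0638 unchanged, so their lack of a peak there was not checked by it. In CK1750 the number of members was then 3 with DMSO and 4 with UNC0638, since the Hormad1 peak of the DMSO list fell out.

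**Figure D3:**
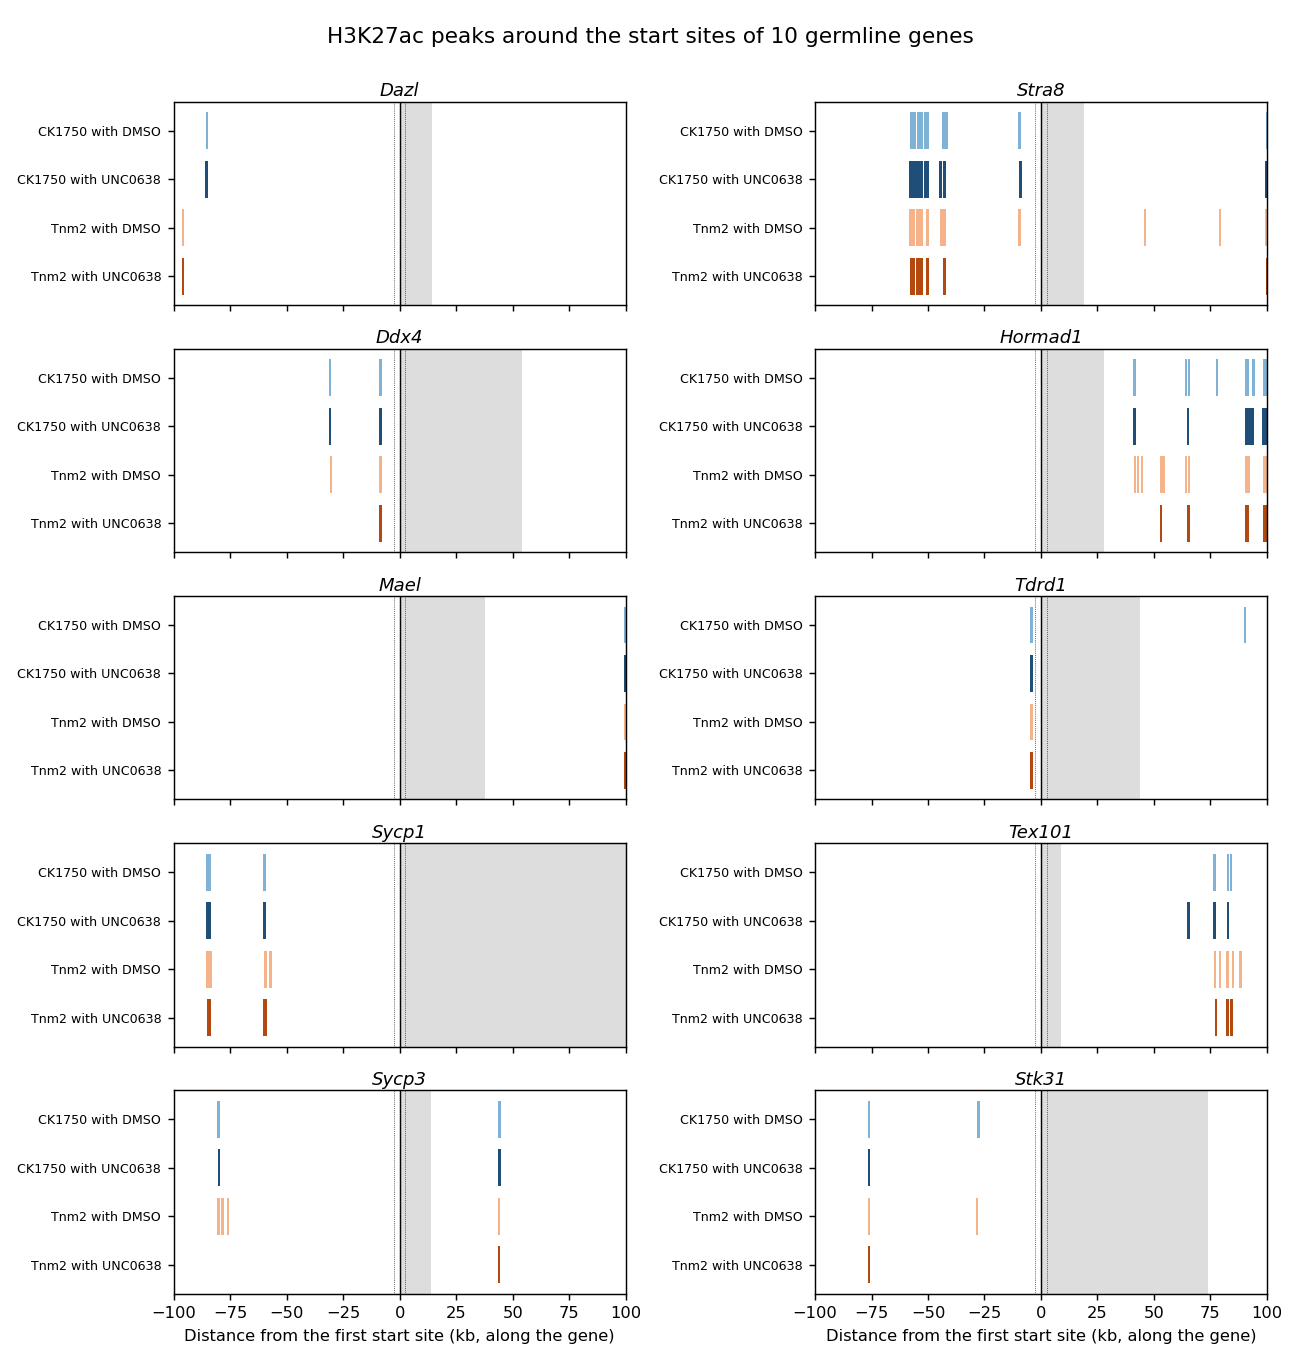
H3K27ac peaks (coloured bars) within 100 kb of the first start site of each of the 10 germline genes, with distance in kb along the gene's own direction on the horizontal axis and a row for each of the 4 peak lists. The grey area is the gene body, the solid line its first start site and the dotted lines 2.5 kb on each side, and no bar lies between the dotted lines in any panel.

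Ddx4 (chr13:112598333-112652475, minus strand, build mm10), the gene of an RNA helicase used as a germ cell marker, was the only member besides Tdrd1 with a peak within 20 kb in all 4 lists. The peak covered the start of Slc38a9, a lysosomal amino acid transporter gene that runs in the opposite direction and starts 8.276 kb from Ddx4. Its scores were 198.7 in CK1750 given DMSO, 159.74 in CK1750 given UNC0638, 201.96 in Tnm2 given DMSO and 133.54 in Tnm2 given UNC0638, and 56.9, 46.6, 61.5 and 55.0% of the respective list scored lower. It was thus a peak of middle rank everywhere. Its edge nearest to Ddx4 stayed between 8.045 and 8.177 kb from the Ddx4 start, and its width between 730 and 875 bp. In CK1750 given DMSO it spanned chr13:112660615-112661368.

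Stra8 (chr6:34920163-34939344, plus strand), the retinoic acid-induced gene that starts meiosis, likewise stands head to head with Wdr91, an endosomal trafficking gene whose start lies 9.287 kb away. The peak over the Wdr91 start scored 88.12 in CK1750 given DMSO, 192.61 in CK1750 given UNC0638 and 256.8 in Tnm2 given DMSO, and Tnm2 given UNC0638 had none. It ranked above 32.4, 51.9 and 67.9% of the peaks in those 3 lists, and its widths there were 504, 1345 and 1226 bp. The near edge was 9.21, 8.577 and 8.751 kb from Stra8. In Tnm2 given UNC0638 the nearest peak was 41.955 kb away at the start of Cyren, with a score of 83.36. The peak that Stra8 lost in Tnm2 was thus at the promoter of Wdr91.

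Tdrd1 (chr19:56826209-56870012, plus strand), a Tudor domain gene of the piRNA pathway, had the closest peak of all members. This peak covered the start of Ccdc186, the head-to-head neighbour, whose start site is 4.019 kb from that of Tdrd1. Its scores were 1335.37 in CK1750 given DMSO, 1141.21 in CK1750 given UNC0638, 1490.14 in Tnm2 given DMSO and 358.31 in Tnm2 given UNC0638. It was among the stronger peaks in each list, above 91.2, 89.5, 96.2 and 84.7% of the others. Its near edge stopped 3.545, 3.713, 3.514 and 3.566 kb before Tdrd1, and its width ran from 1105 to 1312 bp. The 250 bases upstream of each of these 2 starts are printed because a peak covered the start of Ccdc186 in all 4 lists and stopped short of that of Tdrd1, and those upstream of Hormad1 because they hold both motifs. They are RefSeq sequences of build GRCm38.p6 written 5′ to 3′ on the strand of the gene, with CACGTG and GGCGGGAA in capitals.
Ccdc186, chr19:56822200-56822449, minus strand: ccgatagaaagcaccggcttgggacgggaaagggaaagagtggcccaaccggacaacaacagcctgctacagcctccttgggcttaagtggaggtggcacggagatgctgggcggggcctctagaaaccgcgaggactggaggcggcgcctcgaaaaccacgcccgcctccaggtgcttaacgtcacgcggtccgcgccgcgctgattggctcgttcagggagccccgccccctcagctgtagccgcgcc
Tdrd1, chr19:56825959-56826208, plus strand: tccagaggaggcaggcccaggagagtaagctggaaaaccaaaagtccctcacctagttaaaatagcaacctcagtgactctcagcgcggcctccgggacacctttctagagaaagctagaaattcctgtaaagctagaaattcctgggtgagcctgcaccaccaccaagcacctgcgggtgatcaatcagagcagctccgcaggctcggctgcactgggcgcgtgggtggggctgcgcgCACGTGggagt
Hormad1, chr3:95559427-95559676, plus strand: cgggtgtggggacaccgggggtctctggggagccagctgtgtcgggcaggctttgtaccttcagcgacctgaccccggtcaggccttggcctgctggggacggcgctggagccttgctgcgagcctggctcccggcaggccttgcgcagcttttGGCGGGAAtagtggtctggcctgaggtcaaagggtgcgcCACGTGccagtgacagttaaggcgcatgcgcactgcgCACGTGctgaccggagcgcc

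The Ccdc186 stretch held 24 CpG, 66.0% G and C and neither motif. That of Tdrd1, from the entry with 20 CpG in all 300 bases, held 11 CpG, 57.6% G and C and the E-box at its end. That of Hormad1, with 19 CpG and 68.0% G and C, held the E2F motif upstream of its boxes.

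Hormad1 (chr3:95559677-95587671, plus strand), which encodes a protein of the meiotic chromosome axis, was the only member with nearby peaks away from all start sites. They lay past the end of the gene, in the intron of Golph3l, a Golgi protein gene on the same strand. CK1750 given DMSO had 1 such peak (score 65.27, 41.164 kb from the Hormad1 start), CK1750 given UNC0638 had 1 (score 104.69, 40.988 kb), and Tnm2 given DMSO had 3 (scores 128.16, 57.2 and 59.11, at 41.075, 42.734 and 44.435 kb). The first of these sat at nearly the same place in the 3 lists, 11.852, 11.676 and 11.763 kb from the nearest start site, that of Golph3l. All 5 were in the lower part of their lists, the highest ranking above 46.7% of the peaks. Tnm2 given UNC0638 had none within 20 kb, and its nearest peak was in the same gene at 52.625 kb, with a score of 78.09. The promoter of Golph3l had no peak in any list.

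The remaining germline genes had no peak within 20 kb in any list. For Sycp1 (chr3:102818499-102936100, minus strand), a gene of the synaptonemal complex, the nearest peaks were at 59.052, 59.012, 56.91 and 58.948 kb in the order CK1750 with DMSO then UNC0638, Tnm2 with DMSO then UNC0638. Their scores were 1617.92, 1336.3, 63.36 and 567.79. Those in 3 lists covered the start of Sike1, and the weak peak in Tnm2 given DMSO lay beside a stronger peak over that same start (score 825.3). Sycp3 (chr10:88459569-88473236, plus strand), a gene of the lateral elements of the same complex, lies inside Chpt1, a phospholipid synthesis gene on the opposite strand. The Chpt1 start site peak was the nearest one in all lists, at 43.635, 43.455, 43.468 and 43.567 kb, with scores of 195.15, 304.81, 249.5 and 92.71. Sycp3 thus had no peak although the gene that contains it carried one at its start in every list.

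Dazl (chr17:50279395-50293636, minus strand), an RNA-binding regulator that licenses germ cells, had its nearest peaks at 85.063, 85.133, 95.491 and 95.425 kb in the same order, with scores of 186.35, 147.69, 139.58 and 59.64. All lay in an intron of the gene model AC060761.1, at nearly the same place within a line and at different places in CK1750 and Tnm2. Mael (chr1:166201201-166238747, minus strand), which acts in transposon silencing, had the most distant peaks, at 99.154, 99.423, 99.335 and 99.772 kb. They scored 1151.81, 1005.8, 768.26 and 281.39 and lay in an intron of Gpa33, an intestinal epithelial surface antigen gene. Ildr2, head to head with Mael at 15.392 kb, had no promoter peak in any list.

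Tex101 (chr7:24668007-24676675, minus strand) had its nearest peaks at 71.632, 60.135, 71.803 and 72.312 kb, with scores of 231.36, 110.34, 288.75 and 71.77. The peak in CK1750 given UNC0638 covered the start of Phldb3 and those in the other 3 lists lay in an intron of Ethe1. CK1750 given UNC0638 also had a peak at nearly that same place in Ethe1, with a score of 134.57, farther away than its Phldb3 peak. For Stk31 (chr6:49395604-49469501, plus strand) the nearest peak changed with treatment in both lines, from 27.402 to 75.682 kb in CK1750 and from 27.939 to 75.687 kb in Tnm2. The near peak, at a start site of Fam221a, was present in both DMSO lists (scores 67.95 and 66.93) and in neither UNC0638 list. Both scores were low in their lists, with 21.3 and 19.4% of peaks below them. The far peak, at the start of Ccdc126, was in both UNC0638 lists (scores 75.09 and 156.92). It was also in both DMSO lists (149.68 in CK1750 and 191.51 in Tnm2), so what differed was the presence of the weak near peak.

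**Figure D4:**
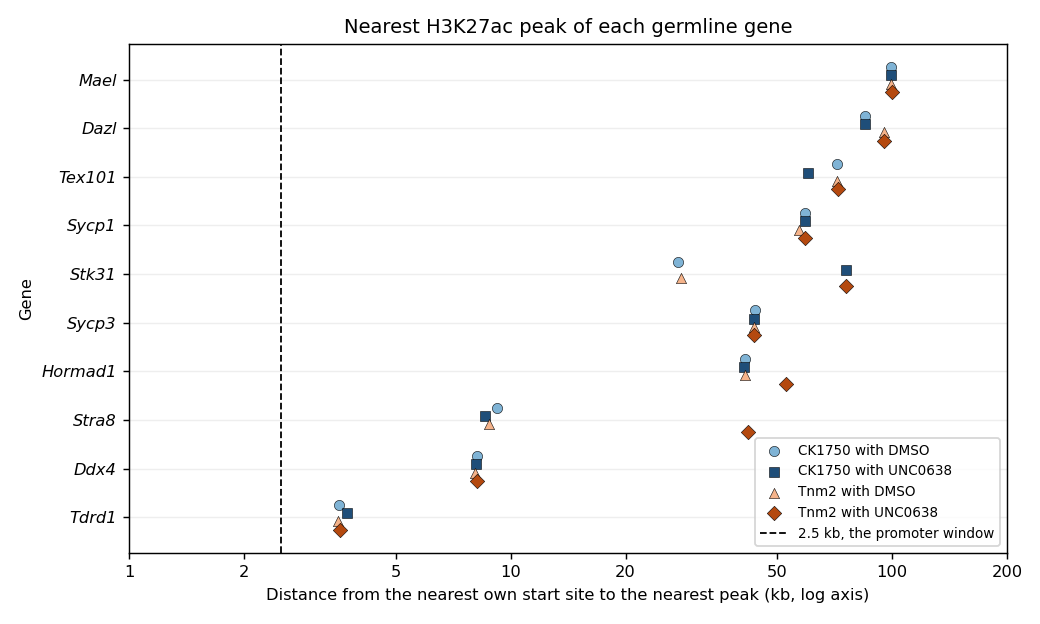
Distance in kb (horizontal log axis) from the nearest own start site of each germline gene to the nearest H3K27ac peak, with a symbol for each of the 4 peak lists and a dashed line at 2.5 kb. All symbols lie to the right of the line, from 3.514 kb for Tdrd1 to 99.772 kb for Mael, and the lists fall close together for most genes and apart for Stra8, Hormad1, Stk31, Tex101 and Dazl.

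Over the 10 genes, the median distance to the nearest peak was 42.4 kb in CK1750 given DMSO, 51.234 kb in CK1750 given UNC0638, 42.272 kb in Tnm2 given DMSO and 55.786 kb in Tnm2 given UNC0638. Medians over all protein-coding genes were 2.458, 3.458, 3.082 and 12.652 kb. Among genes with no promoter peak of their own they were 63.189, 70.365, 61.595 and 66.876 kb in the same order, with quartiles of 21.486 and 211.529 kb in CK1750 given DMSO. In each list the members' median lay above that of all genes. It lay below the median of genes without a promoter peak and within their quartiles. More than 50 kb separated 4, 5, 4 and 6 members from a peak.

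Some neighbouring promoters were marked while those of the germline genes were not. Of 10 protein-coding genes with a start site within 20 kb of a member, 5 had a promoter peak in CK1750 given DMSO, 4 in CK1750 given UNC0638, 5 in Tnm2 given DMSO and 3 in Tnm2 given UNC0638. Among all protein-coding genes the shares were 50, 49.1, 49.4 and 41.3% in the same order, so the neighbours' counts were near those of genes in general. The neighbours' peaks were at Slc38a9, Wdr91, Ccdc186, Chpt1 and Fam221a, the last 2 at start sites farther from the member than their closest one. Il31ra, Ildr2, Slc23a4, Golph3l and Vwa2 had none. The 11 other neighbours, noncoding genes and pseudogenes, had 0 in each list.

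The missing promoter peak was not shared by every germline gene. Of 30 other meiosis genes, 5, 6, 5 and 4 had a promoter peak in the order CK1750 with DMSO then UNC0638, Tnm2 with DMSO then UNC0638, and of 20 other genes of the piRNA pathway and germ cell RNA control, 3, 3, 5 and 4. These shares, from 13.3 to 25%, stood above the members' 0 and below those of all genes. Several of the peaks also lay at the start of another gene, as those of Tex14 did with Rad51c, those of Zcwpw1 with Mepce and those of Ddx25 with Pus3. When only peaks free of other start sites were counted, the 50 genes of both lists gave 4, 5, 4 and 2. The share of all genes was not counted in this way, so these numbers have no like base.

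Nanos3 and Tdrd7 had a promoter peak of their own in every list. Nanos3, which protects early germ cells, had peaks whose highest scores were 251.47, 81.36, 971.48 and 306.83 in the same order of lists. Prdm9, which places meiotic recombination sites, also had one in every list, at a place shared with the gene model Gm6686. Peaks in only some lists were those of Mei4 in CK1750 in both treatments (scores 138.01 and 59.45) and of Msh5 in all but Tnm2 given UNC0638. Terb1 and Tdrkh had theirs in both Tnm2 lists alone, and Piwil4 in Tnm2 given DMSO (62.17). Syce2, a synaptonemal complex gene, was the only 1 of the 12 genes with its peak solely in a UNC0638 list (CK1750, score 95.73). Of 41 other germline genes with a promoter sequence, 14 held CACGTG (34.1%), and 2 of these 14 (Ddx25 and Syce2) had a promoter peak in any list against 10 of the 27 without the box.

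The genes of the silencing machinery carried H3K27ac in both lines. Of 17 genes for factors known to silence germline promoters, 16 had a promoter peak in CK1750 given DMSO, 17 in CK1750 given UNC0638, 16 in Tnm2 given DMSO and 14 in Tnm2 given UNC0638. Among all protein-coding genes the shares were 50, 49.1, 49.4 and 41.3%, and among those with 15 or more CpG 78.2, 77.2, 76.1 and 65.2%. Counting only peaks free of other genes' start sites gave 9, 10, 9 and 9 of the 17 factors, since those of Ehmt2, Cbx3 and Ring1, among others, also lay at a start of C2, Hnrnpa2b1 or H2-Ke6. No share of all genes was counted in this way for comparison with these factors. The drug targets were among them: Ehmt1 (Glp) had peaks with scores of 467.96, 539.94, 473.17 and 227.29, and Ehmt2 (G9a) had peaks with highest scores of 679.84, 501.41, 806.52 and 244.31. Mga, whose protein pairs with MAX on E-boxes, scored 836.35, 679.54, 761.08 and 467.28. Max, E2f6, L3mbtl2, Pcgf6, Ring1, Rnf2, Tfdp1, Cbx3, Wiz, Zfp644 and the DNA methyltransferase gene Dnmt1 also had a peak in every list. Some of these scored low: Dnmt1 had 62.25, 96.71, 69.99 and 54.5 in the same order of lists. In Tnm2 given UNC0638, Pcgf6, E2f6 and L3mbtl2 scored 61.41, 63.89 and 65.83. Setdb1 and Dnmt3b lacked one only in Tnm2 given UNC0638, and Uhrf1 had one only in CK1750 given UNC0638 (57.12). A peak marks the gene's promoter and says nothing of the protein's amount or of the enzyme's activity under the inhibitor.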

How the data were processed

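H3K27ac ChIP-seq of the 9 samples was processed by the authors, who mapped reads to mouse build 38 (mm10) with bowtie2 and called peaks in MACS 1.4.2 with the P value cutoff set to 1e-05. SAMtools is also named in their processing notes. Each deposited list gives peak positions and a score, -10 log10 of the peak's P value, used within a list only. Samples were grouped by line, treatment and mark as labelled. The 3 CK1750 DMSO samples carry 2 replicate numbers and the CK1750 UNC0638 samples share 1. Which libraries were pooled, and whether input DNA was the control, is not given in the sources used here. Depth is unknown.

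Start sites were those of GENCODE M 21 (55413 genes), and promoter sequences came from RefSeq (GRCm38.p6). A promoter peak had at least 1 base within 2.5 kb of an own start site, and distances run from start site to peak edge. With 1 list per group no test was made. Python 3.11.15, numpy 2.4.6 and pandas 2.3.3 were used. In simulated lists, 2000 of 2000 promoter peaks planted among 21938 genes were recovered.

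The members and gene lists were chosen with earlier results of these data known. The text names all members, genes starting at a peak within 20 kb of a member, and listed germline genes and silencing factors with a promoter peak. Genes at farther peaks, neighbours without a peak, and the comparisons of E-box or CpG with peaks were added after the data were seen. Alternatives covered score, list length, window, distance, peak centre, basic transcripts and, added after the data were seen, peaks free of other genes' start sites and the score and list length for meiosis genes and silencing factors.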

Additional observations from a re-analysis of the deposited data

Results flagged for a closer look

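Of 7 counts compared between the lines, 3 moved in opposite directions from DMSO to UNC0638 at the deposited cutoff, and these differences were not tested because each group has 1 list. Other germline genes with a promoter peak changed by 1 in CK1750 (Syce2 added) and by -2 in Tnm2 (Msh5 and Piwil4 missing). The meiosis genes among them changed by 1 and -1. Silencing factors changed by 1 in CK1750 (Uhrf1 added) and by -2 in Tnm2 (Setdb1 and Dnmt3b missing).

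None of the 3 opposite directions held at the 2 other cutoffs tried. With equal numbers of peaks, 18794 per list, the changes in CK1750 and Tnm2 were -1 and -1 for other germline genes, 0 and -1 for meiosis genes, and 0 and -1 for silencing factors. With scores of at least 100 they were -2 and -4, -1 and -2, and -2 and -6. For members with any peak up to 20 kb away, the changes were 0 in CK1750 and -2 in Tnm2 at the deposited cutoff, 1 and -2 with equal numbers of peaks (Hormad1 added in CK1750), and 2 and -2 with scores of at least 100 (Stra8 and Hormad1 added in CK1750). In Tnm2 the members that dropped out were Stra8 and Hormad1 under all 3 cutoffs. Their lack of a peak with UNC0638 was fixed by the deposited cutoff, since the 2 other cutoffs add no peaks.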

How the results depend on the processing

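Of 108 alternative values for 20 results, 91 stayed within a fixed ratio of the main value, or at 0 where that was 0. The other 17 moved. Whether a direction reversed was not assessed in this count. A main value of 0 members could not change under settings that only drop or narrow peaks, so those values are no check. With a window of 5 kb, 1 member (Tdrd1) had a promoter peak in each of the 4 lists, the Ccdc186 peak. With peaks of at least score 100, 2 members had a peak within 20 kb in CK1750 with DMSO, 2 peaks in all, and other germline genes with a promoter peak fell to 5 in Tnm2 with UNC0638. With 50 kb, peaks near members rose to 14, 10, 17 and 8 (CK1750 DMSO, CK1750 UNC0638, Tnm2 DMSO, Tnm2 UNC0638) and members with a peak to 5 in Tnm2 with UNC0638. With 10 kb, 3 peaks remained in Tnm2 with DMSO. Peaks free of other genes' start sites, an alternative chosen after the data were seen, left 4, 5, 4 and 2 other germline genes and 9, 10, 9 and 9 silencing factors. Silencing factors with a score of at least 100, also added then, numbered 15, 13, 15 and 9. Window, distance and score changes act by their construction.

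No paired analysis was possible because a group has a single pooled list with no replicates in it, and leaving out a replicate was not possible either. A peak list ends at a cutoff and carries no read totals, so weak H3K27ac below the cutoff at these promoters was not detectable here. Score and list length differ between the lists, and differences of single weak peaks between treatments have no replicate check.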
